A study of Mus musculus with 57 samples.

Results

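Interscapular brown adipose tissue (iBAT) of wild-type (wt) mouse embryos was compared with that of *Hoxa5*-/- embryos by bulk RNA-seq at E18.5 (embryonic day), with 5 libraries a genotype. All embryos were on the 129/Sv background, and the mutants were homozygous for the Hoxa5tm1Rob allele, in which a neomycin cassette interrupts the homeobox in every cell of the body, so that a change could arise in any tissue. The question put to these libraries was which genes depend on *Hoxa5* in this tissue, and for the genes that did not pass the test, how large a change the measurements still allow. Genes were kept when the authors' TPM values (transcripts scaled to a common library sum, after correction for transcript length) averaged at least 1 in either genotype, which left 15212 of the 56860 genes of the table. The 10 libraries are part of a series of 57, and each held between 18369905 and 22475232 counted reads. The wt libraries came from 5 embryos; for the mutants the sources speak of 5 samples, and p-values measure the spread between these libraries only.

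Brown adipocytes burn fatty acids in their mitochondria and release the energy as heat through UCP1, a proton carrier of the inner membrane. They arise from somites, as skeletal muscle does, under transcription factors such as PRDM16, EBF2 and PPARG, and take up, make and store lipid in many small droplets before birth. HOXA5 is a homeodomain transcription factor that gives positional identity to cells along the body axis. In a bulk sample fewer cells of a type and less RNA per cell cannot be told apart.

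The homeobox that carries the insertion lies in exon 2 of *Hoxa5*, on the minus strand of chromosome 6 (GRCm39), where exon 1 spans 52180769 to 52181567 and exon 2 52178734 to 52179811. It is shown because the null allele interrupts it, while any reads from the rest of the gene would still be counted. The capitals mark the codons of the conserved core of the third helix, the part of the homeodomain that contacts the major groove of DNA. The sequence was read from the reference genome at chr6:52179612-52179791, on the coding strand.

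Hoxa5 homeobox: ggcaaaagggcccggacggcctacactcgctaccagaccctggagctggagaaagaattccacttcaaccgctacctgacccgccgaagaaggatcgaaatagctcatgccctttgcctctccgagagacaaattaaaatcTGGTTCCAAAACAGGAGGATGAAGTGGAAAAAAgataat

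The label of the tissue was checked on markers of brown fat. In every one of the 10 libraries *Ucp1* reached at least 2320 TPM, *Cidea* 3544 TPM, *Cox7a1* 2561 TPM, *Adipoq* 1704 TPM and *Fabp4* 5385 TPM. The lineage regulators *Ebf2*, *Prdm16* and *Zic1* were at no less than 37.9, 5.88 and 2.85 TPM. Markers of skeletal muscle, which adjoins the depot, were present in all libraries too, with *Acta1* between 86.8 and 887 TPM and *Mylpf* between 154 and 970 TPM.

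The libraries also differed in ways that the genotype does not define. *Xist*, the RNA of the inactive X chromosome, had 13433, 11708, 12253, 21 and 15854 counts in wt replicates 1 to 5 and 36, 5, 3264, 12 and 13766 counts in *Hoxa5*-/- replicates 1 to 5. *Ddx3y*, a gene of the Y chromosome, had 2, 0, 1, 2499 and 4 counts in wt and 2328, 3029, 2117, 2697 and 2 in *Hoxa5*-/- libraries. Thus 4 wt libraries and 1 *Hoxa5*-/- library were high in *Xist* alone, 1 wt and 3 *Hoxa5*-/- libraries were high in *Ddx3y* alone, and *Hoxa5*-/- replicate 3 held both. The liver transcripts *Alb* and *Afp* were at 281 and 114 counts in *Hoxa5*-/- replicate 3 against at most 14 and 2 counts in any other library. The libraries with *Ddx3y* alone hold 1 wt library, and those with *Xist* alone 1 *Hoxa5*-/- library, too few to compare genotypes within either set. Lists that turned direction without *Hoxa5*-/- replicate 3 are given with and without it, and a fit with *Xist* as a covariate was run beside the main one.

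*Hoxa5* was the single gene called between genotypes in the main fit, which had no block for replicate. The call required a Benjamini-Hochberg adjusted p under 0.05 in edgeR's quasi-likelihood test and a fold change of at least 1.5, and it was met by 1 of 15212 genes, or 0.00657%. In CPM (counts scaled to a common library size after TMM normalization), *Hoxa5* was at 35.5, 37.3, 34.2, 37.0 and 34.6 in the wt libraries and at 8.43, 9.08, 12.9, 8.38 and 7.67 in the *Hoxa5*-/- libraries. The genotypes did not overlap, and the mutant library nearest to wt was *Hoxa5*-/- replicate 3. The means were 35.7 ± 1.42 and 9.30 ± 2.09 CPM (SD, n = 5 each), and the mutant mean was 26.0% of the wt mean, with p = 0.00794 in a two-sided exact permutation test, the smallest that 5 against 5 libraries can give. The log2 fold change was -1.94 (SE 0.12, adjusted p = 2.6e-06 by edgeR), and without *Hoxa5*-/- replicate 3 it was -2.09 (adjusted p = 1.28e-08 by edgeR). Any reads from the disrupted gene would still be counted, so this level is not read as that of a functional transcript. The origin of the remaining reads was not tested. The locus is also crossed by the antisense RNA *Hoxaas3* and by long *Hoxa3* transcripts. *Hoxa3* lies on the same strand as *Hoxa5*, so the strand of a read cannot separate the 2 genes where they overlap. For *Hoxaas3* the strand setting of the counting was not given in the sources used here. Its reads therefore cannot be told apart from those of *Hoxa5* either.

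DESeq2, applied to the same counts, called 4 genes (0.0263%), all lower in *Hoxa5*-/- libraries: *Hoxa5*, its cluster neighbours *Hoxa7* and *Hoxa9*, and *Vil1*, which encodes the actin-bundling protein villin. *Hoxa7* stood at 3.56, 2.65, 4.72, 2.07 and 1.32 CPM in wt and 0.493, 0.886, 1.12, 0.687 and 0.315 CPM in *Hoxa5*-/- libraries. *Hoxa9* stood at 1.19, 1.99, 1.54, 1.57 and 0.761 CPM in wt and 0.0493, 0.177, 0.419, 0.641 and 0.263 CPM in *Hoxa5*-/- libraries. For both genes the genotypes did not overlap, and every level was under 5 CPM, so each value rests on few reads. The log2 fold change of *Hoxa7* was -2.01 (SE 0.37), with an adjusted p of 0.567 by edgeR and 0.000524 by DESeq2. With the replicate number as a block in the edgeR fit, *Hoxa7* was called (adjusted p = 0.0184 by edgeR). A block by the leading number of the sample name called it too (adjusted p = 0.037 by edgeR). That of *Hoxa9* was -2.15 (SE 0.44), with an adjusted p of 0.614 by edgeR and 0.0107 by DESeq2. *Vil1* stood at 4.01, 6.69, 6.41, 6.21 and 3.25 CPM in wt and 2.76, 1.86, 3.30, 2.47 and 2.47 CPM in *Hoxa5*-/- libraries, with overlap at the lowest wt library, and its log2 fold change was -1.04 (adjusted p = 0.821 by edgeR and 0.0258 by DESeq2). Thus the calls of *Hoxa7*, *Hoxa9* and *Vil1* depended on the tool, and within edgeR on the terms of the fit and the filter on low values.

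**Figure D1:**
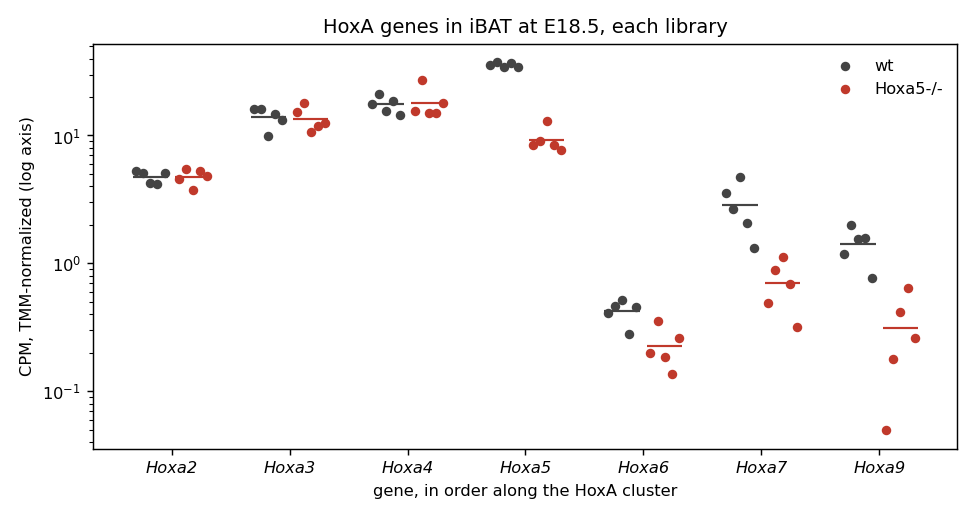
Normalized CPM of 7 *HoxA* genes in each of the 10 iBAT libraries, on a log axis, in the order of the genes along the cluster, with wt and *Hoxa5*-/- libraries in different colours. The wt and mutant points are apart for *Hoxa5*, *Hoxa7* and *Hoxa9* and intermingle for *Hoxa2* to *Hoxa4* and *Hoxa6*.

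None of the other *HoxA* genes was called by either tool. *Hoxa6*, next to *Hoxa5* on its 5′ side, was at 0.410, 0.460, 0.513, 0.280 and 0.457 CPM in wt and 0.197, 0.354, 0.186, 0.137 and 0.263 CPM in *Hoxa5*-/- libraries, overlapping and under 1 CPM throughout (log2 fold change -0.88, SE 0.35). On the 3′ side, *Hoxa4* had a mean of 27.8 TPM in wt and 28.2 TPM in *Hoxa5*-/- libraries, with a log2 fold change of 0.047 and a 95% interval of 0.814 to 1.31 times the wt level. *Hoxa3* had a log2 fold change of -0.050 (0.765 to 1.22 times) and *Hoxa2* one of 0.0012 (0.812 to 1.23 times).

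Across all 4 Hox clusters, 23 of the 39 genes listed were expressed above the limit, 10 lower and 13 higher in *Hoxa5*-/- libraries whatever the p, where 49.5% of all genes tested were higher. The median log2 fold change was 0.001, against -0.001 over all genes tested. An unadjusted p under 0.05 was found for 4 of them, *Hoxa5*, *Hoxa6*, *Hoxa7* and *Hoxa9*, all lower, where 2.47% of all genes tested had one. *Hoxd8*, with 17.98 TPM in wt and 18.7 TPM in *Hoxa5*-/- libraries, differed by 0.10 on the log2 scale (0.939 to 1.23 times). Of the other paralogues of group 5, *Hoxb5* had a log2 fold change of 0.011 (0.775 to 1.31 times) and *Hoxc5* one of 0.21 (0.953 to 1.41 times). The TALE homeodomain proteins, which bind DNA together with HOX proteins, are encoded by 9 listed genes, of which 7 were tested and all 7 had 95% intervals within a 1.5-fold change.

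Within 1000 kb on either side of *Hoxa5*, 25 genes were tested, and 17 of these were not coding genes of the *HoxA* cluster. Of the 17, 10 were lower in *Hoxa5*-/- libraries, with a median log2 fold change of -0.12. *Skap2*, which encodes an adaptor protein of immune cell signalling and lies 192 kb from *Hoxa5*, was at 79.9, 83.4, 87.3, 78.9 and 75.3 CPM in wt and 63.9, 67.6, 71.5, 71.4 and 68.1 CPM in *Hoxa5*-/- libraries. Its libraries did not overlap, although the difference was small, at -0.24 on the log2 scale (SE 0.062, 0.772 to 0.928 times), and the adjusted p by edgeR was 1.0. Of 7 tested noncoding or unclassified transcripts inside the cluster 6 were lower and 1 higher. *Hotairm1*, *Hoxaas2* and *Hoxaas3* had log2 fold changes of -0.24, -0.42 and 0.26, and *Gm15050*, *5730596B20Rik*, *Gm56051* and *Gm56053* had -0.30, -0.28, -0.35 and -0.12, with none called.

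The libraries of the 2 genotypes failed to overlap for 47 genes (0.309% of those tested), 36 lower (0.237%) and 11 higher in *Hoxa5*-/- libraries. Among the 31 of these with a mean of at least 5 TPM in a genotype, 26 were lower. *Mmd2*, which encodes a membrane protein of the progestin and adipoQ receptor family, was at 12.8, 6.59, 14.4, 9.84 and 24.6 CPM in wt and 1.97, 2.79, 5.58, 6.41 and 4.20 CPM in *Hoxa5*-/- libraries. Its log2 fold change was -1.70 (SE 0.34), and it did not pass the test (adjusted p = 0.687 by edgeR and 0.209 by DESeq2). In the other direction, *Meox2*, a homeobox gene of the paraxial mesoderm, was at 34.96, 32.3, 30.1, 36.2 and 34.2 CPM in wt and 38.2, 48.3, 39.96, 38.5 and 44.1 CPM in *Hoxa5*-/- libraries. All mutant libraries lay above all wt libraries, by 0.32 on the log2 scale (1.11 to 1.40 times), again without an adjusted p under 0.05.

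How firmly the other genes were held to their wt level was read from the 95% interval of each log2 fold change. For 11425 of 15212 genes (75.1%) the whole interval lay within a 1.5-fold change in either direction and for 13531 (88.9%) within 2-fold. A stricter interval of 99% lay within 1.5-fold for 9997 genes (65.7%). Intervals are per gene and not adjusted for the number of genes. The median interval ran from 0.845 to 1.18 times the wt level. At the other end, the interval reached past a 1.5-fold change on both sides for 1167 genes (7.67%), about which the libraries say little. It lay wholly outside a 1.5-fold change for 5 genes, all lower: *Hoxa5*, *Hoxa7*, *Hoxa9*, *Mmd2* and *Nxph4*, which encodes a secreted neurexin ligand.

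The interval narrowed with the level of expression up to about 100 TPM. Of genes with a mean of at least 10 TPM, 7082 of 7362 (96.2%) had an interval within a 1.5-fold change, and of those under 10 TPM 4343 of 7850 (55.3%). The share was 19.3% under 2 TPM, 58.5% from 2 TPM, 86.6% from 5 TPM, 95.6% from 10 TPM, 98.3% between 50 and 100 TPM and 96.8% from 100 TPM up. Protein-coding genes reached 87.7% (10538 of 12018), against 30.4% of long noncoding RNAs (372 of 1223) and 33.7% of processed pseudogenes (367 of 1090). Small RNAs, which poly(A) libraries capture poorly, were hardly bounded at all, with 6 of 187 microRNA precursors and 1 of 132 small nucleolar RNAs inside the limit.

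**Figure D2:**
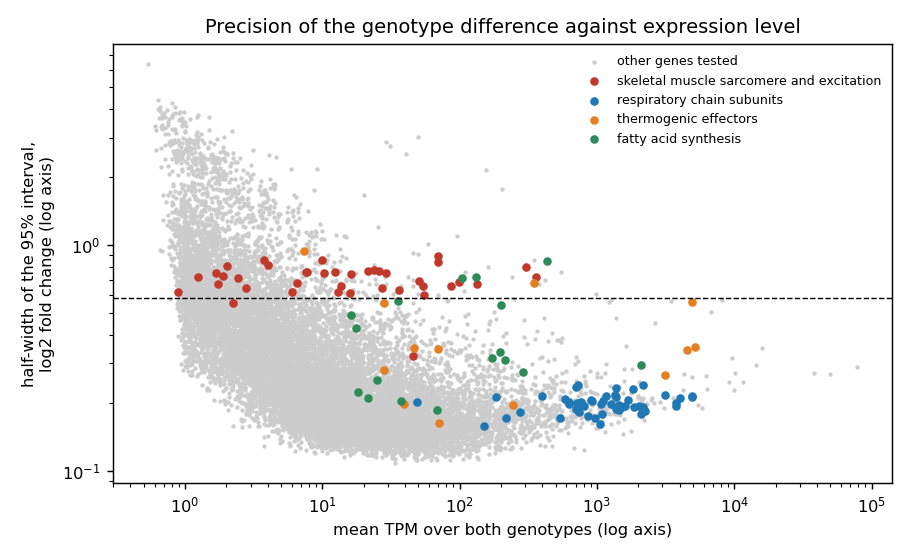
Half-width of the 95% interval of the log2 fold change of each gene against its mean TPM, both on log axes, with the dashed line at the log2 value of a 1.5-fold change. Most genes above 10 TPM lie under the line, and the genes under 2 TPM lie largely above it.

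The genes of the adipocyte programme were set out in 11 lists, from heat production and its regulators to lipid handling, respiration, adipokines and progenitors. Of 216 genes listed, 207 were tested and 0 were called by edgeR or by DESeq2. The 95% interval was within a 1.5-fold change for 177 of the 207 (85.5%), where 75.1% of all genes tested and 87.7% of protein-coding genes were so bounded. Neither of these shares is matched to the lists for expression level, on which bounding depends. Of all genes at a mean of at least 10 TPM, 96.2% were so bounded. In 4 genes (1.93%) the unadjusted p was under 0.05, where 2.47% of all genes had one: *Dio2* and *Cd24a*, higher (1.03% of all genes), and *Adcy3* and *Ckmt2*, lower (1.45%). The medians of 8 of the 11 lists changed sign with 1 or another library left out. Over all 207 genes the median log2 fold change was 0.018, 121 genes were higher and 86 lower, and in 0 genes did the genotypes fail to overlap. Intervals of 6 genes reached past a 2-fold change, those of *Acsl5*, *Ckmt2*, *Dio2*, *Elovl3*, *Fitm1* and *Lep*.

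**Figure D3:**
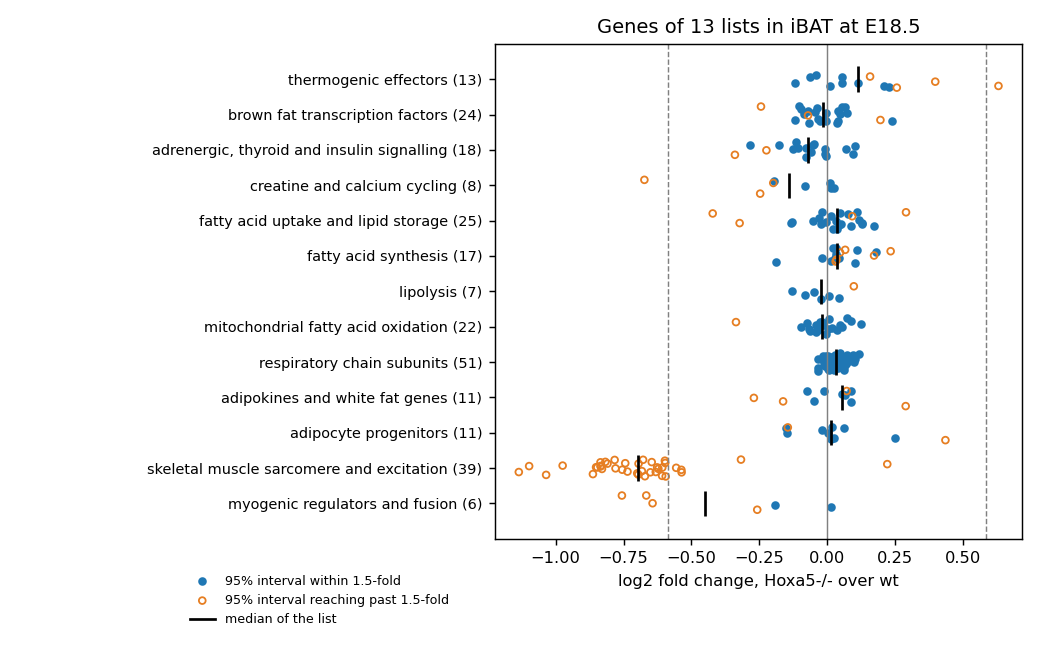
Log2 fold change of each tested gene, *Hoxa5*-/- over wt, in 13 lists, 1 point a gene, with the number tested beside each list name and the median of each list marked. The lists of the adipocyte programme centre near 0, and the 2 muscle lists lie to the left.

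Among the effectors of heat production, 13 of 16 genes were tested, 10 higher and 3 lower in *Hoxa5*-/- libraries, with a median log2 fold change of 0.11. *Ucp1* was at 1872, 4762, 3305, 3482 and 1358 CPM in wt and 4156, 2801, 3889, 3448 and 3352 CPM in *Hoxa5*-/- libraries. The mutant libraries lay inside the range of the wt libraries, whose highest value was 3.51 times the lowest (1.48 times in *Hoxa5*-/-). The log2 fold change was 0.26 (SE 0.26), and the interval of 0.811 to 1.76 times the wt level therefore takes in a rise of more than 1.5-fold but no fall of that size. With 1 library left out, the log2 fold change of *Ucp1* ran from 0.077 to 0.495. Wt replicates 1 and 5 were the lowest of all libraries for *Ucp1* and also for *Elovl3*. *Elovl3*, the elongase of very long fatty acids that marks brown adipocytes, was at 1.64, 7.91, 6.46, 8.61 and 1.07 CPM in wt and 4.34, 6.03, 10.1, 5.91 and 7.25 CPM in *Hoxa5*-/- libraries, with an interval of 0.686 to 2.53 times. Its log2 fold change was 0.40, and with 1 library left out it ran from 0.14 to 0.66.

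*Dio2*, the deiodinase that produces active thyroid hormone inside brown adipocytes, was at 45.7, 75.6, 62.5, 64.5 and 35.02 CPM in wt and 81.2, 153, 77.1, 47.4 and 79.5 CPM in *Hoxa5*-/- libraries. All but replicate 4 of the mutants exceeded every wt library, and the genotypes overlapped through that library. The log2 fold change was 0.63 (SE 0.26, 1.05 to 2.27 times), the highest of the list, with an unadjusted p of 0.0293 and no call. It was 0.34 without *Hoxa5*-/- replicate 2, the library at 153 CPM, and with *Xist* as a covariate it was 0.46 (unadjusted p = 0.139). The remaining effectors were held closer to wt: *Cox8b*, a muscle and brown fat subunit of cytochrome c oxidase, had 5042 TPM in wt and 5257 TPM in *Hoxa5*-/- libraries (0.847 to 1.38 times), and *Cidea*, which fuses lipid droplets, had a log2 fold change of 0.0095 (0.793 to 1.28 times), which was -0.064 without *Hoxa5*-/- replicate 3. Apart from *Ucp1*, *Dio2* and *Elovl3*, *Pdk4* was the only other tested effector whose interval passed 1.5-fold.

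The transcription factors of brown fat differed little. Of 25 listed genes 24 were tested, 15 lower and 9 higher, with a median log2 fold change of -0.02, and 21 had an interval within a 1.5-fold change. *Pparg*, the master regulator of adipocytes, was at 317, 344, 369, 424 and 419 CPM in wt and 342, 346, 359, 418 and 405 CPM in *Hoxa5*-/- libraries. The genotypes covered the same range, and the interval was 0.868 to 1.15 times the wt level. *Prdm16*, which commits cells to brown fat over muscle, was at 27.4, 23.2, 29.8, 37.2 and 39.9 CPM in wt and 32.1, 30.2, 23.3, 38.6 and 32.9 CPM in *Hoxa5*-/- libraries. These values overlapped as well, with an interval of 0.799 to 1.24 times. The pioneer factor *Ebf2* had a log2 fold change of -0.12 (0.707 to 1.199 times), the coactivator *Ppargc1a* 0.054 (0.855 to 1.26 times), *Cebpa* -0.025 (0.878 to 1.10 times) and the dorsal mesoderm gene *Zic1* 0.073 (0.845 to 1.31 times). The intervals of *Ppara*, *Irf4* and *Klf11* passed the limit. Without *Hoxa5*-/- replicate 3 the list held 12 lower and 12 higher genes.

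**Figure D4:**
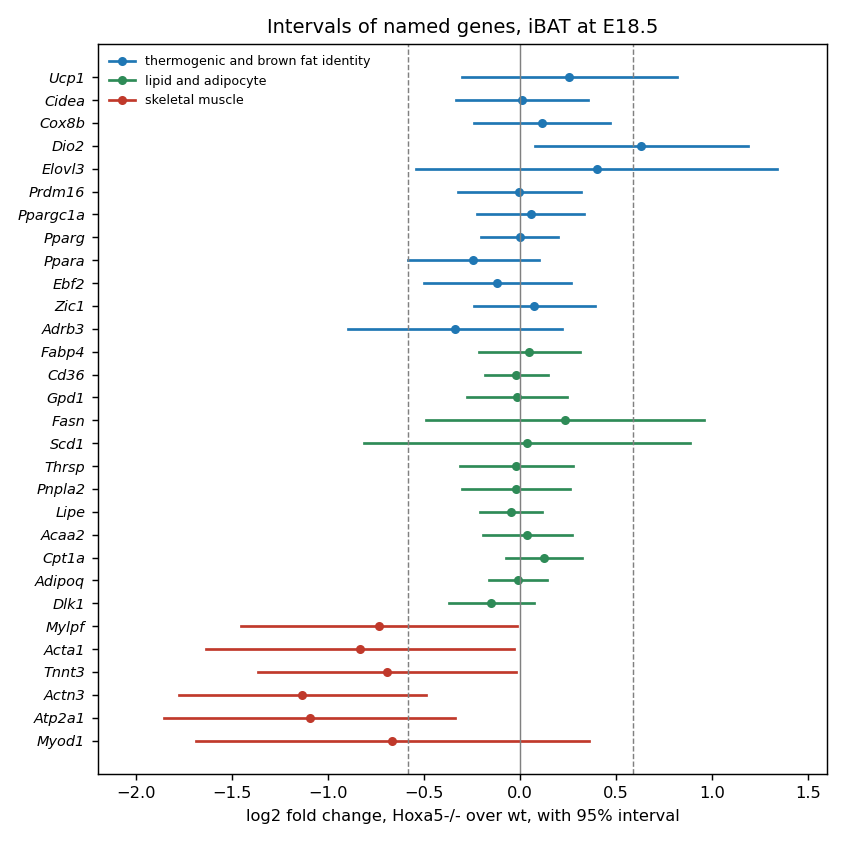
Log2 fold change (point) and 95% interval (bar) of named genes of brown fat, lipid metabolism and muscle, *Hoxa5*-/- over wt, with the 1.5-fold limits marked. Intervals of *Pparg*, *Prdm16*, *Ppargc1a*, *Fabp4*, *Adipoq* and *Lipe* stay inside the limits, those of *Ucp1*, *Dio2*, *Elovl3*, *Fasn* and *Scd1* cross them, and those of the muscle genes reach far to the left.

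Of the genes of adrenergic, thyroid and insulin signalling, all 18 were tested, 15 lower and 3 higher, with a median log2 fold change of -0.07, and 16 were bounded within 1.5-fold. *Adrb3*, the adrenergic receptor of adipocytes, had a log2 fold change of -0.34, and its interval of 0.537 to 1.16 times, like that of *Adrb1*, passed the limit. *Adcy3*, the adenylyl cyclase that makes cyclic AMP in brown fat, was at 5.97, 5.87, 6.26, 4.92 and 6.75 CPM in wt and 5.18, 4.70, 5.54, 4.67 and 4.36 CPM in *Hoxa5*-/- libraries. These ranges overlapped, with a log2 fold change of -0.28 (0.682 to 0.989 times) and an unadjusted p of 0.0388, which was 0.182 with *Xist* as a covariate. In the list of creatine and calcium cycling, 8 of 10 genes were tested, 5 lower and 3 higher, and 5 were bounded. *Ckmt2* was at 8.93, 6.18, 2.82, 2.74 and 3.71 CPM in wt and 3.11, 3.68, 3.86, 2.47 and 2.21 CPM in *Hoxa5*-/- libraries, with its highest value in wt replicate 1. It encodes the mitochondrial creatine kinase of striated muscle, and its log2 fold change moved from -0.67 to -0.33 without that library, which is also the highest for the muscle genes described further on. With *Xist* as a covariate it was -0.51 (unadjusted p = 0.210).

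Lipid genes were tested in 4 lists. For uptake and storage, all 25 genes were tested, 9 lower and 16 higher, 21 of them bounded within a 1.5-fold change, with a median log2 fold change of 0.04. Without *Hoxa5*-/- replicate 3 it held 15 lower and 10 higher genes (median -0.020), and without wt replicate 1 it held 14 lower and 11 higher genes (median -0.0013). *Fabp4*, the fatty acid carrier of adipocytes, had 6258 TPM in wt and 6283 TPM in *Hoxa5*-/- libraries (0.862 to 1.24 times), with a log2 fold change of 0.047, or -0.012 without *Hoxa5*-/- replicate 3. The fatty acid transporter *Cd36* and the glycerol phosphate dehydrogenase *Gpd1* had log2 fold changes of -0.022 (0.879 to 1.10 times) and -0.019 (0.824 to 1.18 times). The 4 genes past the limit were *Slc27a2*, *Dgat2*, *Agpat2* and *Fitm1*. *Fitm1*, which partitions fat into droplets and is also made in skeletal muscle, had the lowest log2 fold change of the list, -0.42 (0.431 to 1.29 times), but without wt replicate 1, the library highest in muscle genes, it was -0.044.

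Fatty acid synthesis was the least tightly bounded part of lipid metabolism. All 17 genes were tested, 2 lower and 15 higher, with a median log2 fold change of 0.03, and 11 were within the limit. *Fasn*, the fatty acid synthase, was at 256, 550.2, 694, 840.4 and 341 CPM in wt and 462, 415, 1239, 435 and 599 CPM in *Hoxa5*-/- libraries. *Scd1*, the stearoyl-CoA desaturase, was at 479, 856, 1385, 1285 and 272 CPM in wt and 591, 786, 1671, 526 and 806 CPM in *Hoxa5*-/- libraries. In both genes *Hoxa5*-/- replicate 3 was the highest of all 10 libraries and the other mutants lay inside the wt range. *Fasn* had a log2 fold change of 0.23 (0.711 to 1.94 times) with that library and -0.17 (0.591 to 1.34 times) without it. *Scd1* had one of 0.034 (0.568 to 1.84 times) with it and -0.34 (0.459 to 1.36 times) without it. Without *Hoxa5*-/- replicate 3 the list held 13 lower genes and a median of -0.06, and the part that the liver transcripts of this library have in it was not tested. The median also changed sign without wt replicate 1 (-0.051) and without wt replicate 5 (-0.040).

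For lipolysis, 7 of 7 genes were tested and 6 were bounded within the limit, with a median log2 fold change of -0.02. The triglyceride lipase *Pnpla2* and the hormone-sensitive lipase *Lipe* had log2 fold changes of -0.022 (0.810 to 1.197 times) and -0.047 (0.866 to 1.08 times), and *G0s2*, the inhibitor of the former, had -0.13 (0.667 to 1.252 times). Mitochondrial fatty acid oxidation held 22 genes, all tested, 13 lower and 9 higher, of which 21 were bounded, and without *Hoxa5*-/- replicate 2 it held 6 lower and 16 higher genes. *Acaa2*, the thiolase of the pathway, had 6303 TPM in wt and 6285 TPM in *Hoxa5*-/- libraries (0.874 to 1.204 times). The gene past the limit was *Acsl5*, an acyl-CoA synthetase, at 23.97, 27.2, 62.8, 57.1 and 36.9 CPM in wt and 22.5, 23.0, 66.0, 24.4 and 28.5 CPM in *Hoxa5*-/- libraries. Here too *Hoxa5*-/- replicate 3 stood apart from the other mutants, and the log2 fold change went from -0.34 with it to -0.76 without it (unadjusted p = 0.00884, adjusted p = 1.0 by edgeR).

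The nuclear subunits of the respiratory chain were the most closely bounded list of the adipocyte programme. All 51 were tested, and all 51 intervals lay within a 1.5-fold change, the widest bounds being 0.856 and 1.28 times the wt level. The median log2 fold change was 0.03, with 40 genes higher and 11 lower. That split of directions moved with single libraries, with 23 genes lower without *Hoxa5*-/- replicate 3 and 1 lower without *Hoxa5*-/- replicate 2, and the median was -0.019 without wt replicate 5. *Cox6a1*, the most abundant, had 4953 TPM in wt and 4939 TPM in *Hoxa5*-/- libraries.

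Among adipokines and genes of white fat, 11 of 12 were tested, 5 lower and 6 higher (8 and 3 without *Hoxa5*-/- replicate 3), and 7 were bounded. *Adipoq*, which encodes adiponectin, was at 980.2, 1050.4, 1025, 970.4 and 894 CPM in wt and 924, 966, 1011, 996 and 987 CPM in *Hoxa5*-/- libraries. The values overlapped, and the interval was 0.895 to 1.10 times the wt level. Leptin (*Lep*) was among the 4 genes past the limit, together with *Cfd*, *Agt* and *Nnat*. Of the genes of adipocyte progenitors, 11 of 13 were tested, and 9 were bounded. *Dlk1*, a protein of preadipocytes, had 322 TPM in wt and 279 TPM in *Hoxa5*-/- libraries, with a log2 fold change of -0.15 (0.773 to 1.05 times). *Cd24a*, a surface protein of early progenitors and of many other cells, was at 13.3, 11.9, 15.7, 11.5 and 10.3 CPM in wt and 14.9, 23.1, 17.9, 15.6 and 13.02 CPM in *Hoxa5*-/- libraries. The groups overlapped, with a log2 fold change of 0.43 (1.08 to 1.69 times) and an unadjusted p of 0.0124, which was 0.0754 with *Xist* as a covariate.

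Genes of the contractile apparatus of skeletal muscle were lower in *Hoxa5*-/- libraries as a list, but not beyond the test for any member. Of 45 genes listed 39 were tested, 38 lower and 1 higher, where 50.5% of all genes tested were lower. By edgeR the unadjusted p was under 0.05 for 24 of them, all lower, where 1.45% of all genes tested were lower with such a p. By DESeq2 11 of them had such a p, where 271 of all 15212 genes had one in either direction. None of the 39 was called by edgeR or by DESeq2, and 0 had an interval within a 1.5-fold change. The median log2 fold change was -0.70, against -0.001 over all genes tested. These genes come from the same fibres and rise and fall together in each library, so that the 38 lower genes are not 38 observations.

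The values by library show where the difference lay. The mean log2 CPM of the 39 genes was 5.39, 4.39, 3.87, 3.72 and 4.16 in wt libraries 1 to 5 and 3.798, 4.07, 4.02, 3.51 and 2.91 in *Hoxa5*-/- libraries 1 to 5. Wt replicate 1 was the highest and *Hoxa5*-/- replicate 5 the lowest, and the other 8 libraries overlapped between genotypes. Over genotypes this was 4.31 ± 0.66 in wt and 3.66 ± 0.47 in *Hoxa5*-/- libraries (SD, n = 5 each). Summed over the list, the level was 4227, 1714, 1459, 1094 and 1696 TPM in wt and 1336, 1598, 1574, 956 and 670.1 TPM in *Hoxa5*-/- libraries.

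*Acta1*, the actin of skeletal muscle, was at 519, 208, 166, 119 and 167 CPM in wt and 164, 152, 192, 98.6 and 55.3 CPM in *Hoxa5*-/- libraries. *Mylpf*, the regulatory light chain of fast fibres, was at 393, 158, 152, 91.1 and 142 CPM in wt and 102, 149.5, 164, 79.3 and 68.1 CPM in *Hoxa5*-/- libraries. As in the library means, both were highest in wt replicate 1 and lowest in *Hoxa5*-/- replicate 5, while the order between differed. The genotypes overlapped. The log2 fold changes were -0.83 (0.321 to 0.978 times) and -0.74 (0.365 to 0.989 times), with unadjusted p-values of 0.0438 and 0.0467. The lowest log2 fold changes were those of *Actn3*, the fast-fibre actinin, at 7.79, 4.34, 3.13, 2.63 and 3.96 CPM in wt and 2.22, 1.55, 2.65, 2.43 and 1.10 CPM in *Hoxa5*-/- libraries, and of *Atp2a1*, the calcium pump of fast fibres, at 45.9, 25.4, 9.03, 13.1 and 22.0 CPM in wt and 12.3, 13.1, 12.6, 10.6 and 5.36 CPM in *Hoxa5*-/- libraries. The overlap was narrow for *Actn3* and wide for *Atp2a1*, in which wt replicate 3 lay below 4 of 5 mutant libraries. The changes were -1.14 (0.291 to 0.712 times) and -1.10 (0.276 to 0.790 times). The sole gene of the list that was not lower was *Mb*, the oxygen store myoglobin, which brown adipocytes make as well (0.22 on the log2 scale, 0.628 to 2.16 times).

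**Figure D5:**
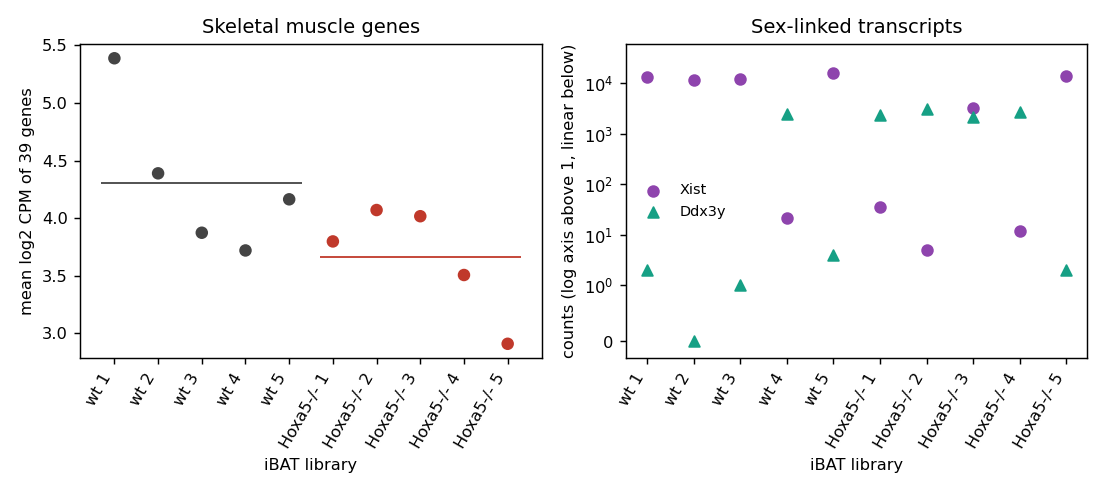
Left, mean log2 CPM of 39 skeletal muscle genes in each iBAT library, and right, counts of *Xist* and *Ddx3y* in the same libraries on an axis that is logarithmic above 1. Wt replicate 1 has the highest muscle value, 5.39, and *Hoxa5*-/- replicate 5 the lowest, 2.91, and *Xist* is high in 4 wt libraries while *Ddx3y* is high in 4 *Hoxa5*-/- libraries.

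The muscle difference depended on single libraries. Without wt replicate 1 the median was -0.28, with 37 of 38 tested genes lower and 3 with an unadjusted p under 0.05. Without *Hoxa5*-/- replicate 5 the median was -0.55 and 6 genes had such a p, without *Hoxa5*-/- replicate 4 it was -0.64 with 10 genes, without *Hoxa5*-/- replicate 1 -0.70 with 12 genes and without wt replicate 2 -0.74 with 16 genes. Without *Hoxa5*-/- replicate 3, the library with liver transcripts, it was -0.80, with 39 of 39 genes lower and 25 with such a p. The count was higher without wt replicate 4 (median -0.85, 33 genes), *Hoxa5*-/- replicate 2 (-0.81, 30 genes) or wt replicate 3 (-0.80, 27 genes), and without wt replicate 5 it was 24 genes (-0.76). With *Xist* as a covariate the median was -0.70 and 2 genes had such a p, and high *Xist* largely coincides with the wt genotype in these libraries. Among the libraries with *Ddx3y* alone the mean log2 CPM of the list was 3.72 in wt replicate 4, the lowest wt library, and between 3.51 and 4.07 in *Hoxa5*-/- replicates 1, 2 and 4, and with 1 wt library no direction is read from these values. Genotype, sex and the amount of adjoining muscle taken with the depot cannot be told apart here.

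The regulators of myogenesis gave little to compare. Of 18 listed genes 6 reached the expression limit, 5 lower and 1 higher, with a median log2 fold change of -0.45. Without wt replicate 1 the median was -0.14 over 5 tested genes, 3 lower and 2 higher. *Pax3* had 0 counts in all 10 libraries. *Pax7*, of satellite cells, had 0 to 7 counts a library, and *Myf5* had 26, 8, 3, 0 and 6 counts in wt and 3, 8, 4, 1 and 1 in *Hoxa5*-/- libraries. These defining markers of muscle precursors were thus at or near 0 at this stage. *Myod1*, the determination factor of muscle, had a log2 fold change of -0.67 (0.310 to 1.28 times), and *Mef2c*, expressed in vessels too, one of 0.013 (0.827 to 1.23 times).

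Somites of E12.5, which hold precursors of muscle and brown fat, were counted in the same table with 4 wt and 4 *Hoxa5*-/- libraries. They serve to ask whether the genotype difference is unlike that of iBAT at E18.5. Tissue and stage differ together in this comparison and cannot be told apart. In somites 1 of 18906 genes was called (0.00529%), again *Hoxa5*, with a log2 fold change of -1.60 (SE 0.12) against -1.94 in iBAT. An interaction of genotype with tissue and stage was called for 0 of 20001 genes by edgeR (0%), with an unadjusted p under 0.05 for 515 (2.57%). By DESeq2 it was called for 2 genes, *Hoxa9* and *Klk1b22*. The log2 fold change of *Hoxa7* was -0.38 in somites and -2.01 in iBAT, that of *Hoxa9* -0.41 and -2.15. *Mmd2* and *Acta1* had 0.025 and -0.054 in somites, against -1.70 and -0.83 in iBAT.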

How the data were processed

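Poly(A) RNA of iBAT was sequenced as paired reads of 150 bases. Trimming (Trim Galore 0.6.5), alignment to GRCm39 (STAR 2.7.9a) and counting per gene (featureCounts 2.0.3) were done by the authors, with an Ensembl annotation curated for Hox genes; reads of overlapping genes therefore remain uncertain. The deposited counts are not normalized, and the authors made the TPM values from those counts. The lists and the genes compared were chosen with earlier results of these data known.

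Deposited counts of the 10 iBAT libraries were tested with edgeR 4.0.16 (R 4.3.3, TMM, quasi-likelihood test, Benjamini-Hochberg adjustment over the 15212 genes whose TPM averaged 1 or more in a genotype). Calls needed an adjusted p under 0.05 together with a 1.5-fold difference or more. CPM are TMM-normalized. The 95% intervals came from the standard error of the fit and its degrees of freedom, and 34 genes without a standard error were counted as not bounded. Total counts were 21282501, 20208528, 20033091, 18369905 and 18404681 in wt replicates 1 to 5 and 20168173, 21829676, 22264231, 22475232 and 19421846 in *Hoxa5*-/- replicates 1 to 5. Exact permutation tests used scipy 1.17.1.

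Alternatives were DESeq2 1.42.0, limma 3.58.1 (voom), other filters and scalings, a replicate block, *Xist* or the muscle list as a covariate, each library left out, and the libraries with *Ddx3y* and without *Xist* only. The fits were also tested on simulated data, and no value from that is given here. Genes were named by rule: every gene called by edgeR or DESeq2, all tested Hox genes, the 3 most abundant and the 2 most changed genes of each of the 13 adipose and muscle lists, the most abundant gene of each other list, the 5 largest rises and falls without overlap at a mean of at least 5 TPM, and 10 regulators. *Skap2*, *Nxph4*, *Mb*, *Afp*, *Ddx3y*, *Pax3*, *Klk1b22*, the RNAs of the *HoxA* cluster and the genes given as those past a limit were named after their values were seen. Of 465 genes listed, 464 were in the table, 5 of them under an older symbol. A few genes that the rule names are not reported here.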

Additional observations from a re-analysis of the deposited data

Results flagged for a closer look

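Each genotype's 5 libraries were searched for a highest or lowest library whose gap to its nearest neighbour was large against the range of the group (Dixon's criterion). Of 290 groups of values 25 met it; chance alone gives about 1 in 20, and the groups share libraries and genes.

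*Hoxa5*-/- replicate 3 was the highest of its genotype for *Hoxa5* (12.9 CPM), *Scd1* (1671 CPM), *Fasn* (1239 CPM), *Acsl5* (66.0 CPM) and *Alb* (13.1 CPM), and for the mean log2 CPM of the adipokine and white fat list (6.39) and the hepatocyte list (2.49). The same library held both *Xist* and *Ddx3y*, and the cause was not tested.

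Wt replicate 1 was the highest of its genotype for the muscle genes *Mylpf* (393 CPM), *Acta1* (519 CPM), *Tnnt3* (215 CPM), *Mymk* (1.96 CPM) and *Myod1* (1.91 CPM). Among mutants, *Mymk* was highest in *Hoxa5*-/- replicate 2 (1.42 CPM) and *Tnnt3* lowest in *Hoxa5*-/- replicate 5 (33.8 CPM).

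Wt replicate 4, the wt library with *Ddx3y*, was the lowest for *Xist* (1.17 CPM), *Cd34* (98.7 CPM), *Hoxb5* (1.57 CPM) and *Hoxc4* (7.66 CPM) and stood apart for *Atp2a2* (223 CPM) and *Cpt1a* (34.6 CPM). *Xist* was highest among mutants in *Hoxa5*-/- replicate 5 (723 CPM), and *Hoxa4* stood apart in *Hoxa5*-/- replicate 2 (26.9 CPM). Wt replicate 5 was the lowest for the respiratory chain list (mean log2 CPM 9.34) and *Cox6a1* (1233 CPM), and wt replicate 3 for the cell cycle list (mean log2 CPM 4.34).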

How the results depend on the processing

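*Hoxa5* was called under every alternative run that kept at least 4 libraries of each genotype. The count of 1 called gene became 4 with DESeq2 (*Vil1*, *Hoxa5*, *Hoxa7* and *Hoxa9*), 3 when the libraries of every tissue in the table were fitted together (*Mmd2*, *Hoxa5* and *Hoxa9*) and 6 of 34674 without a filter on low values (*Vil1*, *Mmd2*, *Hoxa5*, *Hoxa7*, *Hoxa9* and *Atp2a1*). The count of bounded genes ranged from 10990 to 11337 with 1 iBAT library left out and was 10708 with *Xist* and 10533 with the muscle list as a covariate. At a mean of at least 5 TPM, 9372 of 10083 genes (92.9%) were bounded, and without a filter 11897 of 34674 (34.3%). Among the libraries with *Ddx3y* and without *Xist*, 1 wt and 3 *Hoxa5*-/-, it was 5702, a drop that follows from a split with 1 wt library and 2 residual degrees of freedom, from which nothing is read. The interaction of genotype with tissue and stage gave 0 calls with edgeR and 2 with DESeq2. Lists with 1 tested gene were given no median. Of the other counts 63 stayed within 1.5 times. Of 414 list medians under an alternative 410 moved by less than 1 SD of the means of that list over libraries, a wide limit that also holds the muscle median of -0.28 without wt replicate 1. The 4 others came with the muscle list as a covariate, which removes by construction what those genes share: 0.066 for muscle, 0.19 for myogenic regulators, -0.025 for creatine and calcium cycling and 0.11 for Hox genes. Of the 414 medians 44, in 17 of 26 lists, changed sign. The turned medians of the muscle and myogenic lists had been at -0.70 and -0.45, and those of the other lists no further from 0 than 0.18. For the named genes 2322 values stayed, 50 moved, 12 passed the threshold under an alternative only and 0 reversed with a call. The covariate fits and DESeq2 for list medians, and the fit of the libraries with *Ddx3y* alone, were chosen after seeing the data.

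Replicate numbers are shared by the genotypes, and so are the leading numbers of the sample names, but nothing states a common litter or day. Deviations of same-numbered libraries correlated at 0.073 to 0.189, over 0.1 in 4 of 5 pairs. Of the libraries, 4 of 5 wt and 4 of 5 *Hoxa5*-/- correlated best with their own number. Wt replicate 5 correlated best with *Hoxa5*-/- replicate 4 (0.093), which has the same leading number. *Hoxa5*-/- replicate 5 correlated best with wt replicate 3 (0.113), which has another. As 1 pair was under 0.1 and no source states the pairing, the block was kept as an alternative. The main calls therefore take no account of a pairing that may exist. A replicate block gave 2 calls, *Hoxa5* and *Hoxa7* (adjusted p = 0.0184 for *Hoxa7* by edgeR), as did a block by the leading number of the sample name (0.037), with 11817 genes bounded under the former. For the muscle list the replicate block left the median at -0.63 with 34 genes at an unadjusted p under 0.05 by edgeR. The block by leading number left it at -0.63 with 36 such genes.

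Weak genes were the least bounded: under 2 TPM, 19.3% of genes were bounded within a 1.5-fold change. Of genes at such levels the lack of a call says little. The part that sequencing depth has in this was not tested.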

Other observations

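All 10 tested genes of the blood endothelium were higher in *Hoxa5*-/- libraries and all 10 were bounded within a 1.5-fold change, with a median log2 fold change of 0.10. Of all genes tested 49.5% were higher, 50.5% lower and 75.1% so bounded. By edgeR 2 of the 10 had an unadjusted p under 0.05, where 1.03% of all genes were higher with such a p. With *Xist* as a covariate 0 of the 10 had one. With 1 library left out the median ran from 0.097 to 0.143. *Cdh5*, the cadherin of endothelial junctions, had 188 TPM in wt and 202 TPM in *Hoxa5*-/- libraries (1.0 to 1.23 times). All 9 fibroblast genes were lower and all 9 bounded, with a median of -0.08, but with *Xist* as a covariate 8 were higher and the median was 0.048. *Col3a1*, a fibrillar collagen, had -0.086 on the log2 scale (0.778 to 1.14 times). None of these genes was called by edgeR or DESeq2. Of 8 macrophage genes 7 were bounded (median 0.035, and -0.079 without *Hoxa5*-/- replicate 3), of 7 smooth muscle and pericyte genes 6 (median 0.10) and of 4 lymphatic genes 3 (median -0.05). None of the 8 genes of lymphocytes reached the expression limit. *Sox9* of cartilage and *Krt10* of skin had log2 fold changes of -0.29 and -0.053.

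All 7 erythroid genes were higher in *Hoxa5*-/- libraries, with a median of 0.32, and 0 were bounded. By edgeR 2 of the 7 had an unadjusted p under 0.05, and 0 had one with *Xist* as a covariate. *Hbb-bs*, a beta globin, was at 1863, 2369, 3368, 2188 and 1548 CPM in wt and 2332, 3833, 3607, 1193 and 2906 CPM in *Hoxa5*-/- libraries, and the values overlapped. The median was 0.19 without *Hoxa5*-/- replicate 2 and 0.21 without *Hoxa5*-/- replicate 3. All 10 cell cycle genes were higher (median 0.18), but without *Hoxa5*-/- replicate 2 the median was -0.03 and 6 were lower. The 13 genes of the mitochondrial genome were higher, each within a 1.5-fold change, with a median of 0.12. Of 8 immediate early genes 7 were bounded (median -0.05, and 0.0063 with *Xist* as a covariate), and of 7 hypoxia genes 5 (median -0.09). *Alb* and *Apoa1* of hepatocytes had a median of 3.03, from *Hoxa5*-/- replicate 3.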
